A study of Rattus norvegicus with 11 samples.

Results

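The data described here are the islet expression profiles of daughters of chow-fed fathers, the 6 arrays numbered Chow 1 to Chow 6 out of 11 in the study. The arrays were chosen by title alone and no measured value was used. All 6 came from female Sprague-Dawley rats. Their fathers had eaten chow that was 9% fat, and at 15 weeks old they were paired with females that also ate chow. The daughters were weaned at 3 weeks onto chow, and their islets were taken at 13 weeks. The study set them against daughters of males on a high-fat diet, whose 5 arrays are described nowhere below and entered only a check of how the values had been centred. No gene was deleted and no agent was given in the rats described here. The labels number the samples without saying that each number is a separate rat, so the spread reported may be in part technical.

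Total RNA was hybridised to the Affymetrix Rat Gene 1.0 ST array, which reads each gene with a set of short probes treated below as 1 probe. Values are log2 array signals, so a difference of 1 is a doubling of signal. Of 27342 probes, 15097 had 1 gene symbol, and the probe of highest mean stood for each of 14324 genes. Array medians over all probes ran from 6.17 to 6.19, and correlations between pairs of arrays across all probes from 0.989 to 0.995. No label names a run, but for every probe chow 5, chow 6 and 1 high-fat array shared the mean of the other 8 arrays, and they are treated here as a second run centred on the first. Centring links chow 5 and chow 6, since a high value in one lowers the other 2 arrays of that set. Because only 1 group is described, no groups were compared by a test, and every SD is over 6 arrays. Signals of different genes come from different probes and are not set per length. Their order describes brightness on the array, not numbers of transcripts.

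Islets are clusters of endocrine cells within the pancreas. Beta cells make insulin and amylin, alpha cells glucagon, delta cells somatostatin and PP cells pancreatic polypeptide, and each packs its peptide into dense granules after cutting a longer precursor. The tissue around them consists mainly of acinar cells, which make digestive enzymes, with ducts, vessels and connective tissue, and isolated islets can carry pieces of it. In such bulk samples, fewer cells of a type and less RNA per cell cannot be told apart.

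The genes of highest mean signal were those of 2 kinds of secretory cell. Among the 30 brightest genes were 5 islet hormones, 3 granule and processing genes, 19 acinar secretory proteins and 1 heat shock gene, and the others were Eef1a1, a translation elongation factor, and Rpph1, the RNA of ribonuclease P. The last gene inside the 30 was Cela3b at a mean of 12.88 and the first outside was Ftl1 at 12.76. Of the 40 brightest probes, 29 had 1 gene symbol and the other 11 had not, so bright signals without a name are left out of this order. In none of the 29 steps from one gene to the next did the gap in means exceed the larger of the 2 SDs. This measure does not compare neighbours within each array. Ins2 was above Ins1 in all 6 arrays, whereas Ctrb1, above Prss3b in mean, was below it in chow 4. All 6 arrays had 17 of the 30 genes among their own 30 brightest, and 42 genes reached the brightest 30 of any array.

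**Figure D1:**
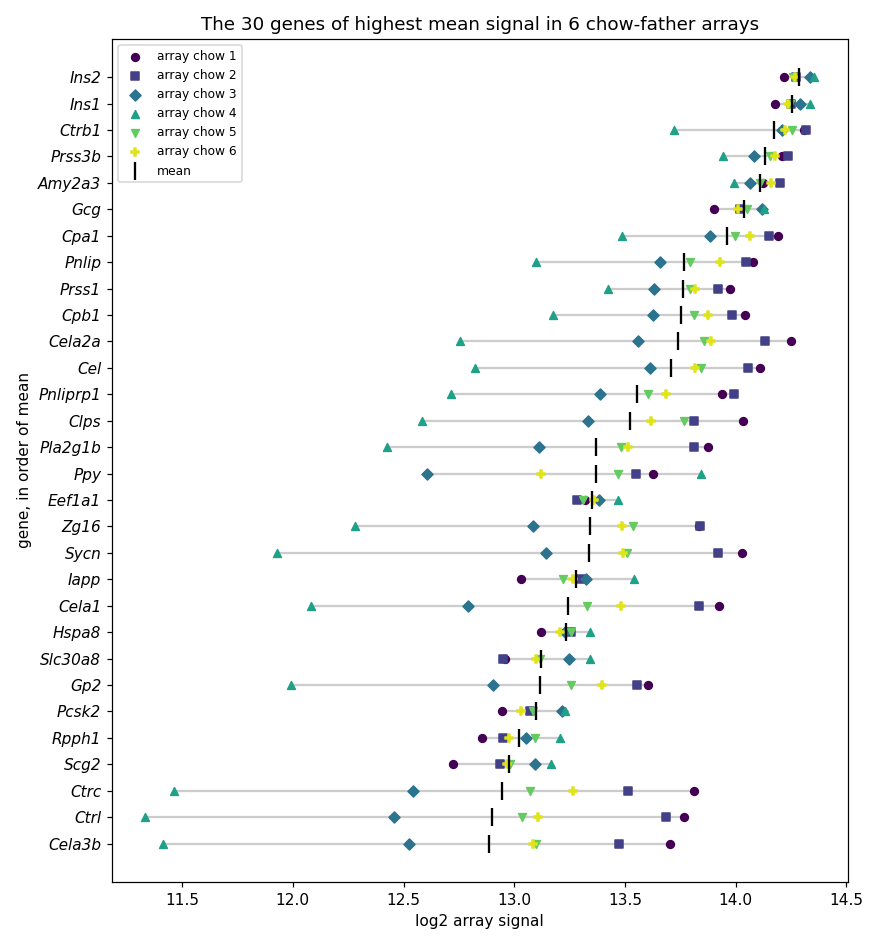
Log2 array signal (horizontal axis) of the 30 genes of highest mean, in order of mean (vertical axis), with a symbol for each of the 6 chow-father arrays and a bar for the mean. Insulin, glucagon and granule genes lie within narrow ranges, while most acinar genes spread to the left through chow 4, down to 11.33 for Ctrl. The acinar genes Amy2a3 and Prss3b are also narrow, with ranges of 0.21 and 0.29. The hormone Ppy is wide, with a range of 1.24 and its lowest value in chow 3.

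Insulin headed the order. Ins2, which encodes insulin 2, had signals of 14.22, 14.27, 14.34, 14.35, 14.26 and 14.27 in chow 1 to chow 6. Ins1, the second insulin gene of the rat, had 14.18, 14.25, 14.29, 14.34, 14.25 and 14.24. In both genes chow 4 was highest and chow 1 lowest, and the SD was 0.05. The genes are near-identical in sequence, so their probes may share signal, and signals above 14 are close to the largest the array returned, so differences there may be compressed.

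The insulin promoters are shown because these were the 2 brightest genes and their start regions can be compared. Sequences are RefSeq's for build GRCr8, the 250 bases before the annotated start, printed 5′ to 3′ on the gene's strand. Ins1 lies at chr1:261185869-261186118 (plus strand) and Ins2 at chr1:207273806-207274055 (minus strand). Capitals mark GCCATCTG, an E-box of the kind bound by Neurod1 dimers, and CTAATTA, which holds the TAAT core read by homeodomain factors such as Pdx1.
Ins1 promoter: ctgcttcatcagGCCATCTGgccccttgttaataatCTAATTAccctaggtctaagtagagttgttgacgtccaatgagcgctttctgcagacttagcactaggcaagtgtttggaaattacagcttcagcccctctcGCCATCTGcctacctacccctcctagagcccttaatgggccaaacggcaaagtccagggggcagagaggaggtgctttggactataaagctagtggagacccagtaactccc
Ins2 promoter: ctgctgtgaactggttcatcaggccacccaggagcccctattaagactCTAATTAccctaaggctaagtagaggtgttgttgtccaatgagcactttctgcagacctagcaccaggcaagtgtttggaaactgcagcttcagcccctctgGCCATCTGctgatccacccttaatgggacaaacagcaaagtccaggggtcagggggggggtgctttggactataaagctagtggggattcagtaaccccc
The stretches were identical in 205 of 262 aligned columns, or 78.2%. GCCATCTG occurred 2 times in Ins1 and 1 time in Ins2, and CTAATTA 1 time in each. Searched on both strands, GCCATCTG occurred in 0.998% of 33469 promoters of the same length and CTAATTA in 1.62%. Each was found in 2 of the 8 islet hormone genes, which were the insulin genes. These letters and those below were picked from 9 motifs looked at with the sequences in view, of which 4 were kept, and a match describes letters, not a bound site.

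The other hormones covered a wide range of levels. Gcg, the glucagon gene, had 13.90, 14.02, 14.12, 14.13, 14.05 and 14.01, with an SD of 0.08. Iapp, which encodes amylin, had a mean of 13.28 ± 0.17 (SD, n = 6) and ran from 13.03 in chow 1 to 13.54 in chow 4. Sst, for somatostatin, had a mean of 11.70 ± 0.17 (SD, n = 6). Glucagon was thus nearly as bright as insulin, and somatostatin stood lower by more than the spread of either. Ghrl, for ghrelin, was at 6.26 ± 0.11 (SD, n = 6), below the median of all genes at 6.79.

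Pancreatic polypeptide and peptide YY varied far more than the other hormones. Ppy had 13.63, 13.55, 12.61, 13.84, 13.47 and 13.12, an SD of 0.44. Pyy had 11.31, 11.37, 10.58, 11.24, 11.10 and 10.48, an SD of 0.39. In both, chow 3 and chow 6 were the 2 lowest arrays. The SDs of these 2 genes were in the top decile of all genes, which holds 10% of genes by its definition and starts at 0.22. The other 6 hormone genes were not in it.

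Genes of the dense granule were bright. Of 14 measured, 13 were in the top decile of mean signal (10% of all genes) and 1 in the top decile of SD, near the share of all genes. Slc30a8, the zinc transporter of insulin granules, had 12.96, 12.95, 13.25, 13.34, 13.12 and 13.10. Pcsk2, a protease that cuts prohormones, was at 13.10 ± 0.11 (SD, n = 6), the granin Scg2 at 12.98 ± 0.15 and Pam, which amidates peptides, at 12.44 ± 0.06. Chga, chromogranin A, was the member of high SD, with 11.01 in chow 1 and 11.77 in chow 4. Chow 4 was the highest array for 7 of the 14 genes and for 5 of the 8 hormones, against 19.2% of all genes.

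Genes by which beta cells sense nutrients followed. Slc2a2, the glucose transporter of rodent beta cells, was at 12.71 ± 0.20 (SD, n = 6), the peptide gene Ucn3 at 11.56 ± 0.09, the fatty acid receptor Ffar1 at 10.91 ± 0.11 and Abcc8, a subunit of the ATP-sensitive potassium channel, at 10.32 ± 0.08. Of the 11 members measured, 8 were in the top decile of mean. Among alpha cell genes the amino acid transporters Slc7a2 and Slc38a5 were at 12.45 ± 0.10 and 11.56 ± 0.05, and the vitamin D binding protein Gc at 11.88 ± 0.15. The list median lay at percentile 62.6 of all genes. Of its 11 members 5 were below the median gene, near the share of all genes.

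Endocrine transcription factors spanned a wide range of levels. Neurod1 was at 11.10 ± 0.16 (SD, n = 6), Pax6 at 10.97 ± 0.08, Rfx6 at 10.74 ± 0.13 and St18 at 10.24 ± 0.16. None of the 13 measured was in the top decile of SD, and their median SD was 0.122 against 0.112 for all genes. Neurog3, the factor that starts endocrine development, was at 6.19 ± 0.21, below the median gene. No probe with 1 symbol represented 10 of the 23 listed factors.

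Acinar secretory genes stood as high in the order as the islet hormones. The median member of the acinar secretory list, 29 genes measured, was at percentile 99.9 of mean signal, as was the median islet hormone, and 26 of the 29 were in the top decile. Ctrb1, a chymotrypsinogen, had 14.31, 14.32, 14.21, 13.72, 14.25 and 14.22. Cpa1, a carboxypeptidase, had 14.19, 14.15, 13.89, 13.48, 14.00 and 14.06. Prss3b, a trypsinogen, was at 14.13 ± 0.11 (SD, n = 6) and Amy2a3, pancreatic amylase, at 14.11 ± 0.07. Chow 4 was the lowest array for each of these 4 genes. Trypsinogen, amylase and elastase genes have close copies whose probes may share signal.

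The digestive programme was present across its classes. Lipid digestion was represented by Pnlip, pancreatic lipase, at 13.77 ± 0.36 (SD, n = 6), its cofactor Clps at 13.52 ± 0.52, Cel, bile salt dependent lipase, at 13.71 ± 0.47 and the phospholipase Pla2g1b at 13.37 ± 0.54. Protein digestion was represented by Prss1 at 13.76 ± 0.20, the carboxypeptidase Cpb1 at 13.75 ± 0.32 and the elastase Cela2a at 13.74 ± 0.54. The zymogen granule proteins Zg16, Sycn and Gp2 were at 13.34 ± 0.59, 13.34 ± 0.76 and 13.12 ± 0.61. Except for Gp2, these means were above the mean of amylin, and each SD was larger than that of amylin.

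**Figure D2:**
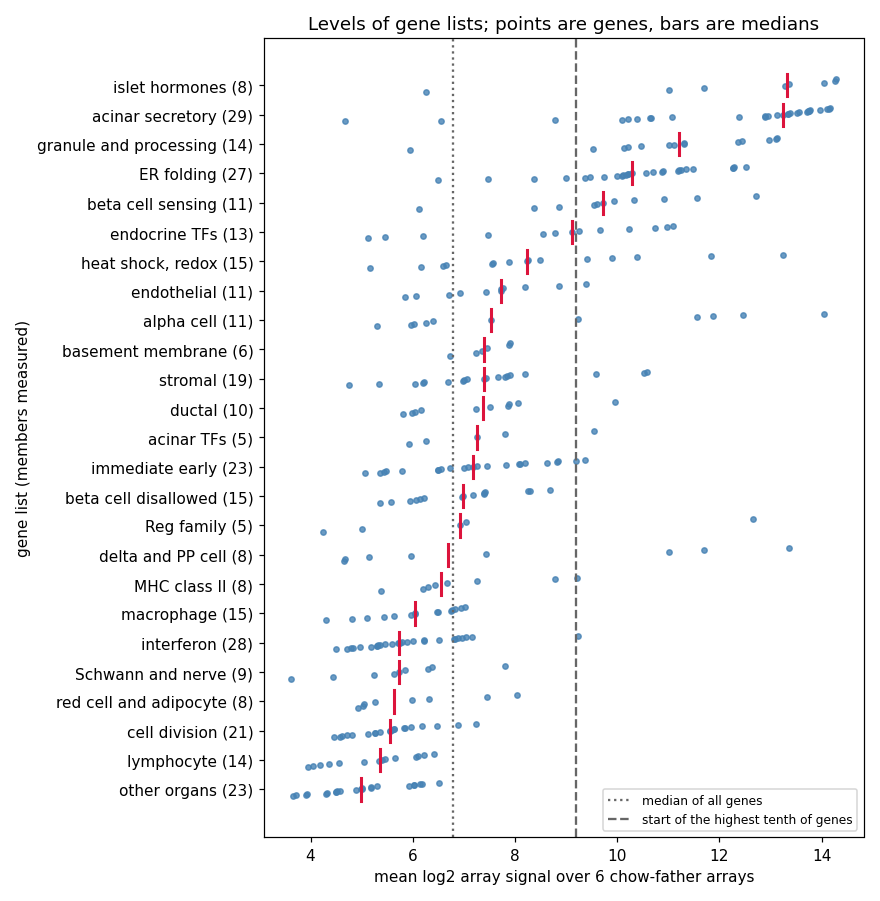
Mean log2 array signal over the 6 chow-father arrays (horizontal axis) of the genes of 25 lists, ordered by list median (vertical axis), with the number measured in parentheses. Points are genes and bars list medians, and the dotted and dashed lines mark the median of all genes at 6.79 and the start of the top decile at 9.20. Islet hormones and acinar secretory genes stand highest, and genes of other organs lowest.

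Spread, not level, set the acinar genes apart. The SD was in the top decile for 25 of the 29 acinar secretory genes and for 5 of 5 acinar transcription factors, against 10% of all genes. Chow 4 was the lowest array for 28 of the 29, against 18.8% of all genes, and chow 1 the highest for 23, against 17.3%. Both held for 22 of them, against 6.82% of all genes. Averaged over the list, members deviated from their own means by 0.60, 0.44, -0.31, -1.03, 0.07 and 0.23 in chow 1 to chow 6. Chow 4 stood lowest by a wide margin and chow 3 second lowest. Without chow 4, 19 of the 29 had an SD in the top decile.

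The brighter acinar genes differed less between arrays. For the 16 acinar genes with means of 13 or more the median difference of chow 1 minus chow 4 was 1.26, for the 4 from 12 to 13 it was 2.39, and for the 9 below 12 it was 2.64. The median SDs of the same groups were 0.469, 0.873 and 0.960. Cuzd1, a zymogen granule protein, had 12.44, 11.85, 10.36, 8.87, 11.16 and 11.73. Spink1, the trypsin inhibitor, had 10.21, 9.88, 7.86, 6.76, 8.13 and 9.87. Compression of signal near the top of the scale was not tested.

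The promoters of 3 acinar genes are shown because their genes were among the brightest and hold both short motifs searched for, as did Cela3b. Ctrb1 lies at chr19:56566979-56567228 (minus strand), Prss1 at chr4:71330999-71331248 (plus strand) and Cel at chr3:32289020-32289269 (minus strand), by the same RefSeq table for build GRCr8. Capitals mark CACCTG, an E-box, and TTTCCCA, a pyrimidine-rich box, in either orientation. Their letters resemble the 2 parts of the element known to be read by the PTF1 complex of Ptf1a and Rbpjl.
Ctrb1 promoter: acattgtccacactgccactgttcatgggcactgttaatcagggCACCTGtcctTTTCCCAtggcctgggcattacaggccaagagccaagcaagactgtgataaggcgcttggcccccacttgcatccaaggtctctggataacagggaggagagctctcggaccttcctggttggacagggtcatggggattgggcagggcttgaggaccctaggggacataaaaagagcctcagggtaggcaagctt
Prss1 promoter: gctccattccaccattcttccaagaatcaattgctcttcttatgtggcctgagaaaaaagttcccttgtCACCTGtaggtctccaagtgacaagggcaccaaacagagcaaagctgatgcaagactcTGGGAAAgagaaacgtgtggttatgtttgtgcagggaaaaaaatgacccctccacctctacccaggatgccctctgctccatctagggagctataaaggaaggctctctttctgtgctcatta
Cel promoter: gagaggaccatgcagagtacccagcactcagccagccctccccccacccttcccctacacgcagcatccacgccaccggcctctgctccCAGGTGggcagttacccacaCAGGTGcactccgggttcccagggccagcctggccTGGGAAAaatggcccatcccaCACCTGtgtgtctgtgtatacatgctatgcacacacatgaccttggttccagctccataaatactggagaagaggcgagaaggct
CACCTG occurred in 10 of the 22 acinar secretory genes with a promoter in the table, against 15.9% of all promoters, and TTTCCCA in 5, against 7.10%. Both occurred in 4 of the 22, against 1.05%. The search did not require any spacing between the 2 motifs. Because the motifs were picked with the sequences in view, these counts are descriptions and are not comparable with the shares of all promoters.

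The acinar transcription factors had the same array order as the enzymes. Rbpjl, a subunit of PTF1, had 10.72, 10.35, 8.96, 7.54, 9.76 and 9.88. Ptf1a, the other cell type specific subunit, was at 6.25 ± 0.70 (SD, n = 6), Nr5a2 at 7.26 ± 0.91 and Bhlha15, a factor of secretory cell maturation, at 7.81 ± 0.32. Chow 1 was highest and chow 4 lowest in 5 of 5 of them. Their median level was far below that of the enzymes, at percentile 57.8.

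The Reg genes, which encode small secreted lectins of acinar and injured tissue, were also low in chow 4 but not highest in chow 1. Reg1a had 13.12, 13.12, 13.25, 10.54, 13.04 and 12.80, so that only chow 4 stood apart. Reg3b had 6.84, 7.67, 8.28, 4.79, 6.90 and 7.76, and Reg3a 7.31, 6.92, 7.95, 5.08, 7.48 and 6.82. Reg3g was instead lowest in chow 5 at 3.88 and highest in chow 6 at 6.96. Of the 5 members, 4 had an SD in the top decile, against 10% of all genes, and 3 were lowest in chow 4, against 18.8%.

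Ribosomal protein genes had the same highest and lowest arrays as the acinar genes, at a small scale. They were bright, with 60 of 70 in the top decile of mean and Rpl10 at 12.69 ± 0.04 (SD, n = 6), and 3 were in the top decile of SD. Yet 39 of the 70 had chow 1 highest and chow 4 lowest, against 6.82% of all genes. The list's mean deviations ran from -0.12 in chow 4 to 0.13 in chow 1. The part of acinar RNA in that order was not tested. Among genes of protein folding in the endoplasmic reticulum 5 of 27 had that order, against the same 6.82%. Yet chow 1 was the lowest array for 13 of the 27 and the highest for 6. The mean deviation of these genes in chow 1 was -0.004, so as a list they did not have that order. The folding genes were bright as well, with Hspa5, the chaperone BiP, at 12.52 ± 0.08 and Canx, calnexin, at 12.28 ± 0.04. Both were lowest in chow 1.

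**Figure D3:**
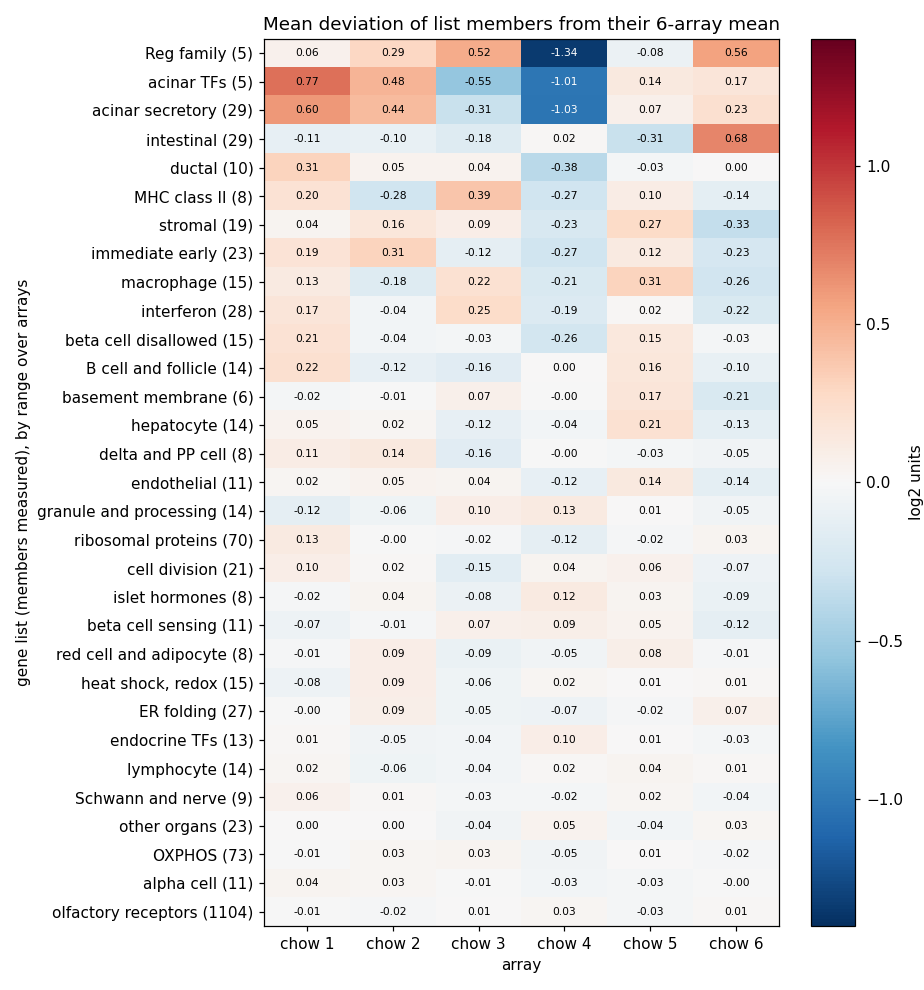
Mean deviation of each list's members from their own 6-array means, in log2 units (colour scale and printed values), for 31 lists (vertical axis, ordered by range) and the 6 chow-father arrays (horizontal axis). Acinar and Reg lists are lowest in chow 4, at -1.03 for the secretory genes and -1.34 for Reg. The intestinal list is highest in chow 6 at 0.68. The mean over the islet hormones moves by 0.12 or less, while its members Ppy and Pyy vary more, with SDs of 0.44 and 0.39.

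Ductal genes were moderate in level, with a list median at percentile 59.8. Krt8, a keratin of simple epithelia, was at 9.96 ± 0.07 (SD, n = 6) and Krt19, a keratin of ducts, at 5.98 ± 0.53. Muc1, an apical mucin, had 8.79, 8.93, 7.39, 6.59, 8.25 and 8.43. Chow 4 was lowest for 5 of the 10 ductal genes, against 18.8% of all genes, and chow 1 highest for 7, against 17.3%. These are the arrays in which the acinar genes had their extremes, and the part of acinar RNA in it was not tested.

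Vascular and stromal genes lay well below the secretory genes. The median endothelial gene was at percentile 66.7, the median stromal gene at percentile 60.1 and the median basement membrane gene at percentile 60.3. Plvap, a protein of fenestrated vessels, was at 9.40 ± 0.14 (SD, n = 6) and the receptor Flt1 at 8.85 ± 0.08. The pericyte gene Rgs5 was at 10.58 ± 0.18, the matrix protein Sparc at 10.53 ± 0.24 and Mgp at 9.59 ± 0.28. Col1a1, a collagen of fibrous tissue, was at 7.43 ± 0.26.

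Many stromal genes had high SDs. Of 19 stromal genes, 15 had an SD in the top decile, against 10% of all genes. Of 11 endothelial genes 2 did, a contrast that was not tested. Chow 6 was the lowest array for 13 of the 19, against 18.4% of all genes, and chow 5 the highest for 8, against 13.9%. These counts are not separate observations, as centring links the 2 arrays. Col1a1 had 7.52, 7.54, 7.47, 7.32, 7.77 and 6.98. Within the first run, chow 1 to chow 4, 10 of the 19 had an SD in the top decile, and without chow 6 it was 11.

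Immune genes were lower again. Macrophage genes had a median at percentile 38.2 and lymphocyte genes at percentile 26.8, near percentile 20.7 of genes of retina, sperm, muscle, pituitary and kidney. Lyz2, lysozyme, had 7.44, 6.53, 7.55, 6.35, 7.49 and 6.71, and C1qc, a complement component, 7.03, 6.74, 7.46, 6.69, 7.32 and 6.43. Chow 1, chow 3 and chow 5 were the 3 highest arrays for both. Of the 15 macrophage genes, 12 had an SD in the top decile, against 10% of all genes. Of the 14 lymphocyte genes 2 did, near the share of all genes. Cd4, which rat macrophages also carry, was at 6.41 ± 0.20 (SD, n = 6), the brightest of the lymphocyte list.

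Many MHC class II and interferon genes were highest in chow 3 or chow 1. Cd74, the invariant chain of MHC class II, had 9.23, 8.91, 9.97, 8.82, 9.47 and 8.95, and RT1-Da, a class II alpha chain, 8.74, 8.39, 9.63, 8.29, 9.00 and 8.61. Chow 3 was the highest array for 5 of 8 class II genes and for 13 of 28 interferon genes, against 21.8% of all genes. Chow 1 was highest for 3 of the 8 and 10 of the 28, against 17.3%. Psmb9, an immunoproteasome subunit, had 6.98, 6.82, 7.62, 6.74, 6.98 and 6.60. The SD was in the top decile for 6 of the 8 and 17 of the 28, against 10% of all genes. Without chow 3 it was for 4 and 11. Ifi27, the brightest interferon gene, was highest in chow 5 at 9.90 and lowest in chow 6 at 8.37.

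Immediate early genes, which cells switch on within minutes of a stimulus or of handling, were present at moderate levels and varied. Fos had 8.61, 9.88, 8.57, 8.52, 8.98 and 8.33, and Jun 9.23, 9.72, 8.39, 7.95, 9.13 and 8.65. Egr1 was at 9.37 ± 0.30 (SD, n = 6) and Dusp1 at 9.20 ± 0.47. Chow 2 was the highest array for 12 of the 23 genes measured, against 15.2% of all genes. The SD was in the top decile for 15, against 10%. The time from islet isolation to RNA extraction is not given in the sources used here.

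Genes known as kept low in beta cells had a median at percentile 53.2. Cat, catalase, was at 8.69 ± 0.23 (SD, n = 6), and Ldha, lactate dehydrogenase A, had 8.63, 8.09, 8.13, 7.90, 8.38 and 8.45. Chow 4 was lowest for 9 of the 15 genes, against 18.8% of all genes, and chow 1 highest for 8, against 17.3%, the arrays in which acinar genes had their extremes. The part of other cells in these levels was not tested. Cell division genes had a median at percentile 30.3, with Mcm2, a replication factor, at 7.24 ± 0.08 and Top2a at 6.18 ± 0.26.

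Olfactory receptor genes gave a floor for reading these levels, which are known mainly from the nose. The median of 1104 such genes was 3.85, at percentile 7.49, and 1101 of them lay below the median gene. Their highest, Or51e1, had 7.67, 7.76, 7.80, 7.09, 7.64 and 7.12. Genes of other organs also lay below the median gene, in 23 of 23 measured. These genes, not known from islets, ran from 3.65 to 6.50, so a signal in that range need not reflect a transcript.

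Many genes of highest SD had the same highest and lowest arrays as the acinar genes. Of the 30 genes of highest SD, 19 were highest in chow 1 and lowest in chow 4, against 6.82% of all genes, and of the 300 highest, 137 were. The 30 ended at Tmem97, with an SD of 0.98 and the next, Serpinb1a, at 0.98. Aqp12a, an aquaporin of acinar cells, had 11.29, 10.94, 9.05, 7.67, 9.92 and 10.41. Erp27, a folding protein of the endoplasmic reticulum, had 10.80, 10.15, 8.45, 7.46, 9.58 and 9.65. Mug1, a protease inhibitor of plasma, had 8.63, 8.04, 6.69, 4.29, 6.75 and 6.80. Rnase6, Tmed6, Tff2, Cth, Nupr1, Serpini2, Amy1, Hsd17b13 and 1810009J06Rikl, named by rule, also had chow 1 highest and chow 4 lowest, with SDs from 1.16 to 1.37.

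**Figure D4:**
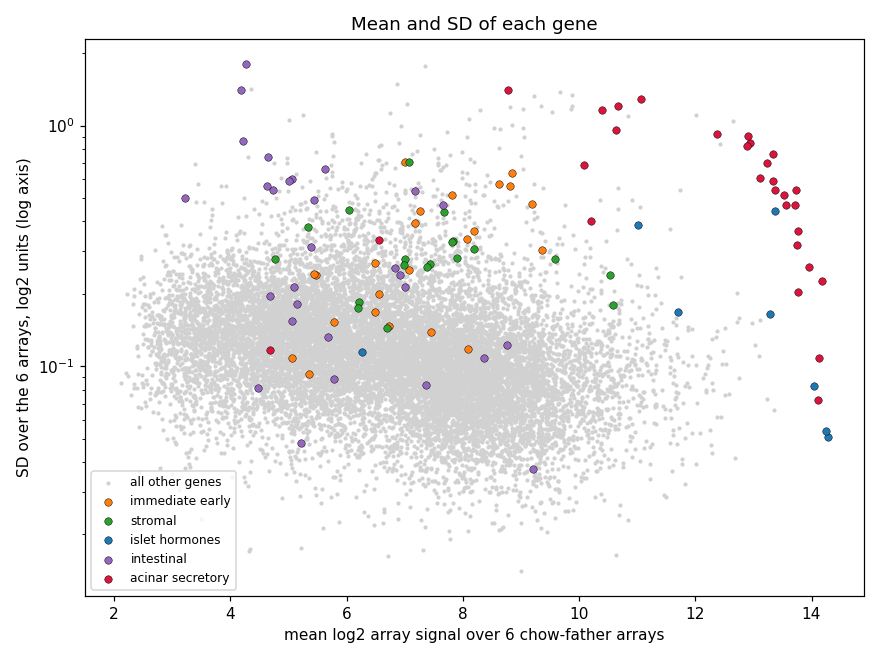
Mean log2 array signal (horizontal axis) against SD over the 6 chow-father arrays (vertical axis, log scale) for 14324 genes, with 5 lists in colour. Of 29 acinar secretory genes 25 lie in the top decile of SD, as do the hormones Ppy and Pyy, while insulin and glucagon do not. The 2 intestinal genes Fabp2 and Fabp1 have high SDs at low means.

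A smaller set of variable genes did not follow the acinar order. Fam111a, a protease active in DNA replication, had 7.66, 5.71, 7.63, 8.97, 9.27 and 4.82, an SD of 1.77 and 17.0 times the median SD of the 500 genes nearest in mean. Jchain, which joins secreted antibodies, had 5.96, 2.75, 3.02, 5.95, 4.70 and 3.74. Alb, albumin, was highest in chow 5 at 8.79 and lowest in chow 3 at 5.66. Cxcl13, a chemokine of B cell follicles, was at 6.81 in chow 1 and 6.41 in chow 5 and between 4.03 and 4.92 in the other arrays. Among 14 hepatocyte genes 4 had an SD in the top decile, and among 14 B cell and follicle genes 3. The share of all genes was 10%. The hepatocyte list was added after Alb was seen among the highest SDs. The B cell and follicle list was added after Jchain and Cxcl13 were seen there. These prompting genes are in the counts, so the counts are descriptions and are not comparable with the share of all genes.

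The most variable gene of all marked chow 6. Fabp2, the intestinal fatty acid binding protein, had 3.55, 3.71, 3.62, 4.50, 2.55 and 7.72, an SD of 1.80. Fabp1, the liver and intestinal form, had 3.31, 3.71, 3.27, 4.55, 3.41 and 6.88. In both, chow 6 stood above the other 5 arrays and chow 4 was second highest. A list of intestinal epithelial genes was drawn up after these values were seen. It was narrowed once with values in view and then restored to every gene looked at, 29 measured of 35.

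Of the 29 intestinal genes, 20 were highest in chow 6, where 12.7% of all genes were, and 11 of these 20 were second highest in chow 4. The list was chosen for that pattern, so the count is a description. Without Fabp2 and Fabp1, which prompted it, 18 of 27 were highest in chow 6. The lowest array was chow 5 for 15 of the 29, where 15.8% of all genes were, which centring links to the high values in chow 6. Si, sucrase-isomaltase of the brush border, had 3.72, 3.80, 3.71, 4.74, 3.58 and 5.75. Cdh17, an intestinal cadherin, had 4.40, 4.29, 4.26, 4.80, 4.04 and 6.06. Alpi, intestinal alkaline phosphatase, had 5.27, 5.30, 5.11, 5.51, 5.03 and 6.38. The 9 genes that were not highest in chow 6 included Vil1, villin, at 9.20 ± 0.04 (SD, n = 6), the stem cell marker Lgr5, the goblet cell peptide Tff3, and Olfm4, which was lowest in chow 6 at 8.52. Without chow 6, 11 of the 29 had an SD in the top decile, compared with 16 in all 6 arrays. That decile holds 10% of all genes. As the list was prompted by high SDs and includes Fabp2 and Fabp1, these counts are not comparable with that share. The part of intestinal tissue in chow 6 was not tested.

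**Figure D5:**
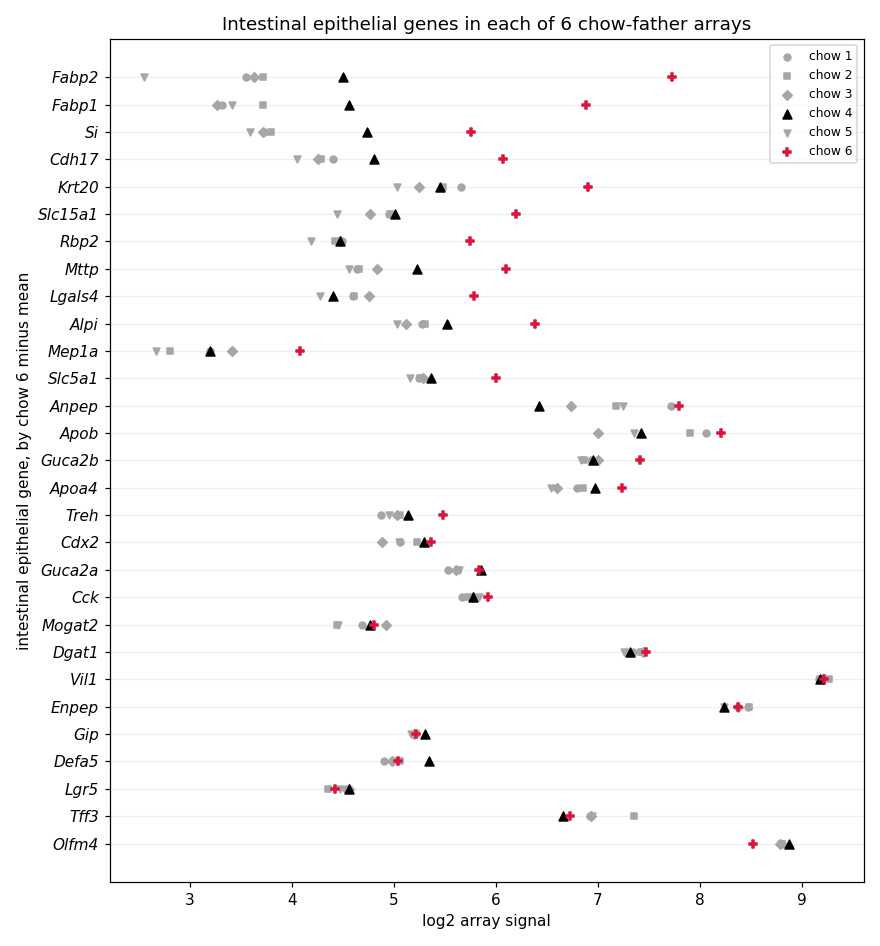
Log2 array signal (horizontal axis) of 29 intestinal epithelial genes in the 6 chow-father arrays, ordered by the value in chow 6 minus the mean (vertical axis), with chow 6 in red and chow 4 in black. Fabp2 at 7.72 and Fabp1 at 6.88 in chow 6 lie far from the other arrays, while Vil1 does not separate them and Olfm4 is lowest there.

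None of the 30 genes of lowest SD was in a list. Klc1, a kinesin light chain, had 8.99, 9.00, 9.01, 8.99, 8.97 and 8.99, an SD of 0.014, the lowest of all genes. Hnrnpf, an RNA binding protein, was at 10.63 ± 0.017 (SD, n = 6), Rdx, radixin, at 9.45 ± 0.021, Smg6, a factor of RNA decay, at 7.32 ± 0.017 and Map1s at 7.78 ± 0.019. Jag2, a Notch ligand, Drp2, Atf7ip2, Fam170a and Ccdc152 had SDs of the same size at means of 6.71, 4.33, 5.22, 4.32 and 3.19. The dimmer of these lie where olfactory receptors lie, so a low SD does not show a steady transcript. The 30 genes of lowest SD ended at Glrx2, with Ythdf1 next, and 7 of them remained when the first run was taken alone.

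Bright genes had smaller SDs than dim ones. The median SD was 0.132 in the bottom decile of genes by mean, 0.137 in the next decile and 0.0854 in the top decile. Across all genes it was 0.112. Against this background the islet hormones had a median SD of 0.140, granule genes 0.108, endocrine transcription factors 0.122 and oxidative phosphorylation genes 0.0821, while acinar secretory genes had 0.539, macrophage genes 0.337 and stromal genes 0.280. Heat shock genes were bright in part, with Hspa8 at 13.23 ± 0.07 (SD, n = 6) and Hsp90ab1 at 11.83 ± 0.03. Delta and PP cell genes had 0.197 and lymphocyte genes 0.116. Of the 8 delta and PP cell genes 3 were in the top decile of SD, against 10% of all genes. These 3 included Ppy and Pyy, already counted among the hormones. Set against genes of like mean, the median SD was 1.34 times as large for islet hormones, 1.20 for granule genes and 5.82 for acinar secretory genes.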

How the data were processed

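Values are log2 signals of Affymetrix Rat Gene 1.0 ST arrays, deposited by the authors after normalization between arrays. The log2 scale was read from the values. Of the steps before that, the submitters' processing notes name only RMA and MAS5, with neither a version nor a purpose. The values also show centring per run. For every probe, the mean over chow 5, chow 6 and the last high-fat array equalled the mean of the other 8 arrays within 5.83e-05, while the next best of 165 sets had a median difference of 0.0495. An SD over the 6 arrays therefore leaves out most of any offset between runs. A second table, of exon features, was not used here.

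From the deposited values, symbols came from the platform table and were updated through RefSeq for build GRCr8 (15067 probes). A further 323 probes with several symbols and 11922 not listed stayed unnamed. Means, SDs and ranks were computed in Python 3.11.15 with pandas 2.3.3, with no filter, and the ranking was tested on simulated data. Named genes were the 30 of highest mean, 20 of highest SD, 10 of lowest SD, 10 of highest SD over that of 500 genes of like mean, 4 brightest per list, and a set of standard markers.

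The members and lists were chosen with earlier results of these data known. Beside 28 lists, 3 were added after high-SD genes were seen (intestinal, hepatocyte, B cell and follicle). Genes of those lists, and others named outside the rule, were chosen after their values were seen. Alternatives were quantile normalization, median centring, the mean of a gene's probes, the first run alone, run means removed, dim genes left out, and each array left out. The number of arrays limits the precision.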

Additional observations from a re-analysis of the deposited data

Results flagged for a closer look

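Some values stood far from the other arrays, judged by the gap to the nearest array over the whole range against Dixon's 95% limit for 6 samples. Of 28 lists 1 passed and of 188 genes of the text and lists 18, and chance passes about 1 in 20 groups. Among all genes 5.38% passed. Most of the 18 genes came from the intestinal list, drawn up after values were seen, so their share is not comparable with that of all genes.

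In chow 6, high values were found for Fabp1 (6.88), Krt20 (6.90), Guca2b (7.41), Alpi (6.38), Slc15a1 (6.19), Cdh17 (6.06), Slc5a1 (6.00), Lgals4 (5.78) and Rbp2 (5.75), which are genes of the intestinal epithelium picked after the values were seen. Low there were Olfm4 (8.52), also from that list, and Lamc1, a laminin chain (7.69).

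In chow 4, low values were found for Reg1a (10.54), the Reg list (mean deviation -1.34), Ctrb1 (13.72) and Rps29 (12.24). The olfactory receptor Or2ak5 (7.24) was high there, as were the defensin Defa5 (5.35) and Gip (5.30), both from the intestinal list. The values of Defa5 and Gip also lay within the range of means of genes of other organs. Map1s, among the genes of lowest SD, was low in chow 5 (7.74).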

How the results depend on the processing

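No paired analysis was possible because 1 group is described and no groups were compared. The 30 genes of highest mean kept 28 to 30 members under every alternative run. The 30 of highest SD kept 20 without chow 4 and 25 to 30 otherwise. The number of acinar secretory genes with an SD in the top decile, 25 of 29, ran from 19 without chow 4 to 26, and the number lowest in chow 4, 28, from 27 to 28, with no value where chow 4 was left out. The form of these last counts was settled after the data were seen. The 30 genes of lowest SD depended most on the processing. They kept 9 under quantile normalization, 19 under median centring, 7 in the first run alone, 13 with run means removed, and 8 to 14 with 1 array left out. The number of lists whose median member lay above the median gene was 18 of 28, and 11 with dim genes left out, where fewer genes are ranked. Leaving out chow 4 moved the SD of 35 of 161 named genes by over 1.5 times, and quantile normalization that of 22. The intestinal count in the top decile of SD, 16 of 29, was 9 in the first run alone and 5 with dim genes left out. Signals near the top of the scale and dim probes limit both ends of the order.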
